A study of Mus musculus with 9 samples.

Results

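SP4 thymocytes with a medium level of the Nur77/Nr4a1-GFP reporter (GFPmed) were compared with SP4 thymocytes with a low level (GFPlo). All cells came from the thymus of Nur77-eGFP BAC Tg mice, and every group carried this transgene, in which a bacterial artificial chromosome drives eGFP from Nr4a1 regulatory sequence. Semi-mature SP4 cells were sorted as Live CD25- CD69+ CD24+ CD4+ CD8- thymocytes, and GFPlo, GFPmed and GFPhi gates each took about 10% of the GFP distribution. Each library started from 10000 sorted cells, with 3 biological replicates per group. The comparison used 6 of the 9 samples in the series (3 GFPlo and 3 GFPmed), with the 3 GFPhi samples given beside them for scale. No treatment is named in the labels, and the groups are defined by the reporter gate. Mice of both sexes were used across the study, and the labels give neither age nor sex for a sample. The labels describe the sort as CD24+, and GFP protein in a sorted cell reports past as well as current transcription of the transgene.

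Nr4a1 encodes NUR77, an orphan nuclear receptor that is transcribed within hours of T cell receptor (TCR) engagement, and reporters of this gene mark thymocytes that have recognised self-antigen. Strong recognition in the thymic medulla can end in clonal deletion through the BH3-only protein BIM, in diversion to the regulatory T cell (Treg) lineage, or in survival with altered responsiveness. SP4 cells that survive go on to express the egress and trafficking genes of mature T cells.

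Expression in TPM, transcripts scaled to the same total in every sample, was available for 41978 genes, and the 28941 genes that reached 1 TPM in 3 or more of the 6 samples were tested. The gene nearest the limit inside it had 1.0001 TPM in its sample of rank 3, and the nearest outside it 0.9999. Another 657 genes lay between 1 and 1.1 by that measure, 676 lay between 0.9 and 1, and none of the former was called. Fold changes are differences of mean log2(TPM + 1), a scale that shrinks the change of genes near 0 TPM. A gene was called where its log2 fold change was at least 1 in size with a limma p, adjusted by Benjamini-Hochberg, of at most 0.05. TPM here was scaled by the genomic span of transcripts, including introns (97.3% of 20121 protein-coding genes), and levels are compared between samples of a gene and not between genes. Reads on genes, recovered from the deposited values, ranged from 7465552 to 14943774 per sample. The 6 samples correlated between 0.855 and 0.908 within groups and between 0.863 and 0.902 across the 2 groups compared. Olfactory and vomeronasal receptor genes, which thymocytes are not known to use, took between 2530 and 4634 RPM, where 1 RPM is a fixed share of a sample's reads, in the 6 samples. Among 12 SP4 thymocyte markers none was at 0, and Cd4 stood between 541 and 609 TPM in GFPlo and between 549 and 575 TPM in GFPmed samples.

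Nr4a1 itself checks the gates. It had 213, 187 and 251 TPM in the GFPlo samples and 366, 351 and 406 TPM in the GFPmed samples. Every GFPmed sample lay above every GFPlo sample, and the GFPhi samples, at 767, 917 and 836 TPM, lay above both. The mean rose from 217 ± 32.1 TPM (SD, n = 3) to 374 ± 28.6 TPM, a ratio of 1.72, while the log2 fold change of 0.79 (SE 0.12) missed the threshold across all genes (adjusted p = 0.131). With limma-voom on the recovered reads the change was 0.77 with an adjusted p of 5.16e-04. Nr4a3, a second member of the family, had 3.85, 3.17 and 3.69 TPM in GFPlo and 6.65, 5.79 and 7.44 TPM in GFPmed samples. Nr4a2 had 3.58, 5.18 and 3.28 TPM in GFPlo and 7.68, 7.87 and 7.41 TPM in GFPmed samples. Neither pair of groups overlapped, and neither gene passed the test (log2 fold change 0.74, adjusted p = 0.498 for Nr4a3, and 0.81, adjusted p = 0.692 for Nr4a2). In bulk samples, fewer cells that express a gene and less RNA per cell cannot be told apart.

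Few genes passed at the medium reporter level. Of the 28941 genes, 17 were called higher in GFPmed (0.0587% of those tested) and 1 was called lower (0.00346%). With no fold limit 22 genes passed higher (0.076%) and 1 lower (0.00346%). An unadjusted p under 0.05 was reached by 808 genes higher in GFPmed (2.79%) and 561 lower (1.94%). Leaving out any 1 of the 6 samples brought the higher calls down to between 2 and 9, with 2 left without GFPmed replicate 3, 4 without GFPlo replicate 2 and 5 without GFPlo replicate 3. Of the 17, 12 had a mean of at least 10 reads over the 6 samples, and these are Tnfrsf4, Tnfrsf9, Tnfrsf18, Bcl2l11, Gadd45b, Lad1, Bcl3, Klf2, S1pr1, Smc4, Cyth4 and Gm16008. All 12 also reached an adjusted p of at most 0.05 with limma-voom on reads, and 11 were called by it, since Tnfrsf18 had a log2 fold change of 0.98 there.

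**Figure D1:**
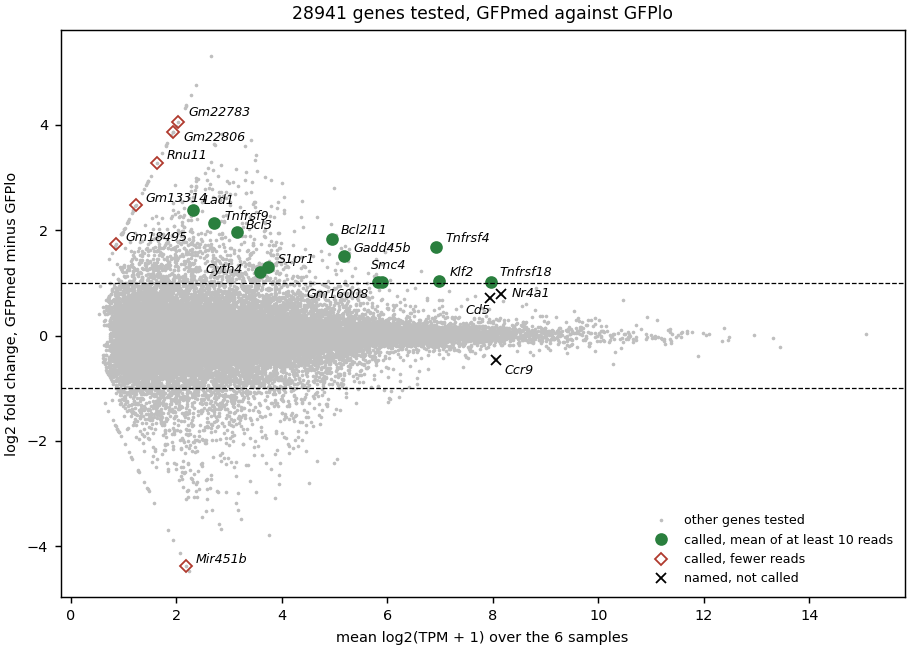
Log2 fold change of GFPmed minus GFPlo (y axis) against mean log2(TPM + 1) over the 6 samples (x axis), 1 point per gene tested, with dashed lines at the fold change limit of 1. The 12 calls with at least 10 mean reads (filled circles) lie at log2 fold changes of 1.02 to 2.39. The other 6 calls (open diamonds), with fewer reads or, for Rnu11, no recovered reads, line the edges of the cloud at low expression.

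RefSeq promoter windows were used for 11 of 13 genes, these 12 and Nr4a1, and Smc4 and S1pr1 were not searched. Upstream sequence is shown for 3 of them because they share a box that EGR factors are known to bind, GCGGGGGCG on either strand, and for Tnfrsf9 as a call without it. Each run is the 250 bases before a RefSeq start on the plus strand (GRCm38.p6), at chr15:101266596-101266845 for Nr4a1, chr2:128125788-128126037 for Bcl2l11, chr8:72318812-72319061 for Klf2 and chr4:150919905-150920154 for Tnfrsf9. Capitals mark the EGR box in the first 3 and the core GGAAAA, known from NFAT sites, in Tnfrsf9.
Nr4a1: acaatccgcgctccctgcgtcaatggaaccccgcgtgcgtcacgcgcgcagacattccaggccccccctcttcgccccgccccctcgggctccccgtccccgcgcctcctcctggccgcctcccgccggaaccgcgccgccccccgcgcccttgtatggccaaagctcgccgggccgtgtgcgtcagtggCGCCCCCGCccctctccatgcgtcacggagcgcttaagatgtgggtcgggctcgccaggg
Bcl2l11: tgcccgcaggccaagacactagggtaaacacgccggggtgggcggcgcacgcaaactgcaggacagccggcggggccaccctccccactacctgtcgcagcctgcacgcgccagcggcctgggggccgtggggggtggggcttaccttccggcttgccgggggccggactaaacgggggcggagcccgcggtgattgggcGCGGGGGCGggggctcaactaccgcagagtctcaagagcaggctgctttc
Klf2: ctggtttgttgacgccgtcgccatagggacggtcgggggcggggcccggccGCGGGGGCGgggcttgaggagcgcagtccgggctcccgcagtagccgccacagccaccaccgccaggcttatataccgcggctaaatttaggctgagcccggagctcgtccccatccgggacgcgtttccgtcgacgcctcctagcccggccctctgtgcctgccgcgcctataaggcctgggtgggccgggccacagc
Tnfrsf9: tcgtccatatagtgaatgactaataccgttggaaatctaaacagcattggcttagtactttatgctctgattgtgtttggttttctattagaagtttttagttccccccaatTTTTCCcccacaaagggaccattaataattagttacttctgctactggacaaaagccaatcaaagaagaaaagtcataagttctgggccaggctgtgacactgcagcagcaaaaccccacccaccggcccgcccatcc
The box began 60 bases before the start of Nr4a1, 50 before that of Bcl2l11 and 199 before that of Klf2, and in all 3 it overlapped a GC box (GGGCGG). Over 32851 RefSeq promoters the EGR box was in 2.57% and the GC box in 32.7%, and the GC box was in 6 of the 11 genes. GGAAAA was in 20.4% of promoters and in 2 of the genes (Tnfrsf9 and Tnfrsf18). TGAGTCA, the AP-1 site, was in 4.46% and in Tnfrsf9 at its other start, and TGCGTCA was in 1.75% and in Nr4a1. No match was found in these 11 genes for AAAGGTCA, the monomer site of NR4A proteins (1.34% of promoters), GCGTGGGCG (0.536%) or TGACGTCA (1.55%). Both strands were searched, and genes with more than 1 start had more than 1 window. These are matches of letters in a window and carry no measurement of binding.

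Of the 12 genes, 3 encode receptors of the TNF superfamily. Tnfrsf4, which encodes the co-stimulatory receptor OX40, had 67.5, 68.3 and 64.5 TPM in the GFPlo samples and 204, 193 and 257 TPM in the GFPmed samples. The GFPlo values were close to each other and all GFPmed values were well above them, at a ratio of means of 3.26. Its log2 fold change was 1.68 (SE 0.10, adjusted p = 0.00332), beside 3.41 for GFPhi over the same GFPlo samples. It was the only gene of the 12 still called when GFPmed replicate 3 was left out.

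Tnfrsf9, encoding the co-stimulatory receptor 4-1BB, was near the TPM limit in GFPlo, with 1.53, 2.69 and 2.29 TPM, and had 13.0, 11.3 and 14.1 TPM in GFPmed samples. These values rest on 31, 68 and 53 reads in GFPlo and 506, 271 and 286 reads in GFPmed. The groups were far apart, with a ratio of means of 5.89 and a log2 fold change of 2.13 (SE 0.16, adjusted p = 0.00835). GFPhi samples had 174, 207 and 202 TPM, so the change from GFPlo to GFPhi, 5.96 on the log2 scale, was larger than that to GFPmed.

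Tnfrsf18, encoding GITR, had 162, 184 and 177 TPM in GFPlo and 326, 337 and 407 TPM in GFPmed samples. Its lowest GFPmed value was well above its highest GFPlo value, and the log2 fold change was 1.02 (SE 0.11, adjusted p = 0.0288). Tnfrsf4 (chr4:156013843-156016612) and Tnfrsf18 (chr4:156026164-156028895) are neighbours on the plus strand of GRCm38, 9551 bases apart. Gm16008 (chr4:156022008-156031643, minus strand), an antisense gene whose span covers Tnfrsf18, had 42.2, 38.5 and 42.5 TPM in GFPlo and 79.9, 78.9 and 94.1 TPM in GFPmed samples. It was called with nearly the same change as Tnfrsf18 (1.02, SE 0.10, adjusted p = 0.021), and since the strand setting of the counting is not given in the sources used here, reads of the 2 genes cannot be told apart.

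Tnfrsf1b, encoding TNFR2, passed the adjusted p below the fold limit. It had 10.2, 9.82 and 10.9 TPM in GFPlo and 17.5, 17.4 and 19.4 TPM in GFPmed samples (log2 fold change 0.76, SE 0.09, adjusted p = 0.0404). Of 15 receptors in the list of the superfamily 13 were tested, and 3 were called higher (0.0587% of all genes tested). Another 1 passed the adjusted p (0.076% of all genes passed higher), and none passed lower. Of the 13, 6 were higher in all GFPmed than in all GFPlo samples (5.69% of all genes tested). The median change of the list was 0.13, beside -0.0045 over all genes tested. Among the receptors that did not pass, Tnfrsf25 (DR3) had 9.91 ± 1.26 TPM in GFPlo and 18.9 ± 2.97 TPM in GFPmed, Cd27 had 767 ± 49.3 and 840 ± 68.6 TPM, and the death receptor Fas had 12.7 ± 1.05 and 13.3 ± 1.12 TPM. None of the 10 ligands of the superfamily tested was called by limma (median 0.12), and 0 passed by limma-voom. At an unadjusted p under 0.05, 1 was higher (2.79% of all genes tested). Of the 10, 8 had a change above 0 (14220 of all 28941 genes tested). All GFPmed samples lay above GFPlo for 3 of the 10 (5.69%). Lta, encoding lymphotoxin alpha, was nearest at 0.48 (adjusted p = 0.474).

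Treg cells are known to express OX40, 4-1BB and GITR, so Treg markers are given beside these receptors. The summed level of 7 Treg markers was between 107 and 118 TPM in GFPlo and between 133 and 186 TPM in GFPmed samples, with no marker at 0. Most of this sum was Gpr83, a G protein-coupled receptor gene, with 79.5, 71.8 and 71.6 TPM in GFPlo and 142, 109 and 87.8 TPM in GFPmed samples. Without Gpr83 the sum of the other 6 was between 35.7 and 42.3 TPM in GFPlo and between 43.7 and 45.2 TPM in GFPmed samples. Foxp3, the lineage factor, had 6.57, 6.65 and 7.04 TPM in GFPlo and 7.27, 5.69 and 6.03 TPM in GFPmed samples. These Foxp3 values overlapped, and its log2 fold change was -0.09 (SE 0.16). Il2ra, which encodes the CD25 used to exclude Treg cells in the sort, had 0.606, 0.648 and 0.741 TPM in GFPlo and 1.74, 1.50 and 2.01 TPM in GFPmed samples. Il2ra, Gpr83 and Ikzf4 were the 3 markers of the 7 above GFPlo in every GFPmed sample (5.69% of all genes tested). None of the 3 passed the test on TPM, while Ikzf4 passed with limma-voom (adjusted p = 0.0497). The part of Treg-lineage cells in the receptor result was not tested.

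**Figure D2:**
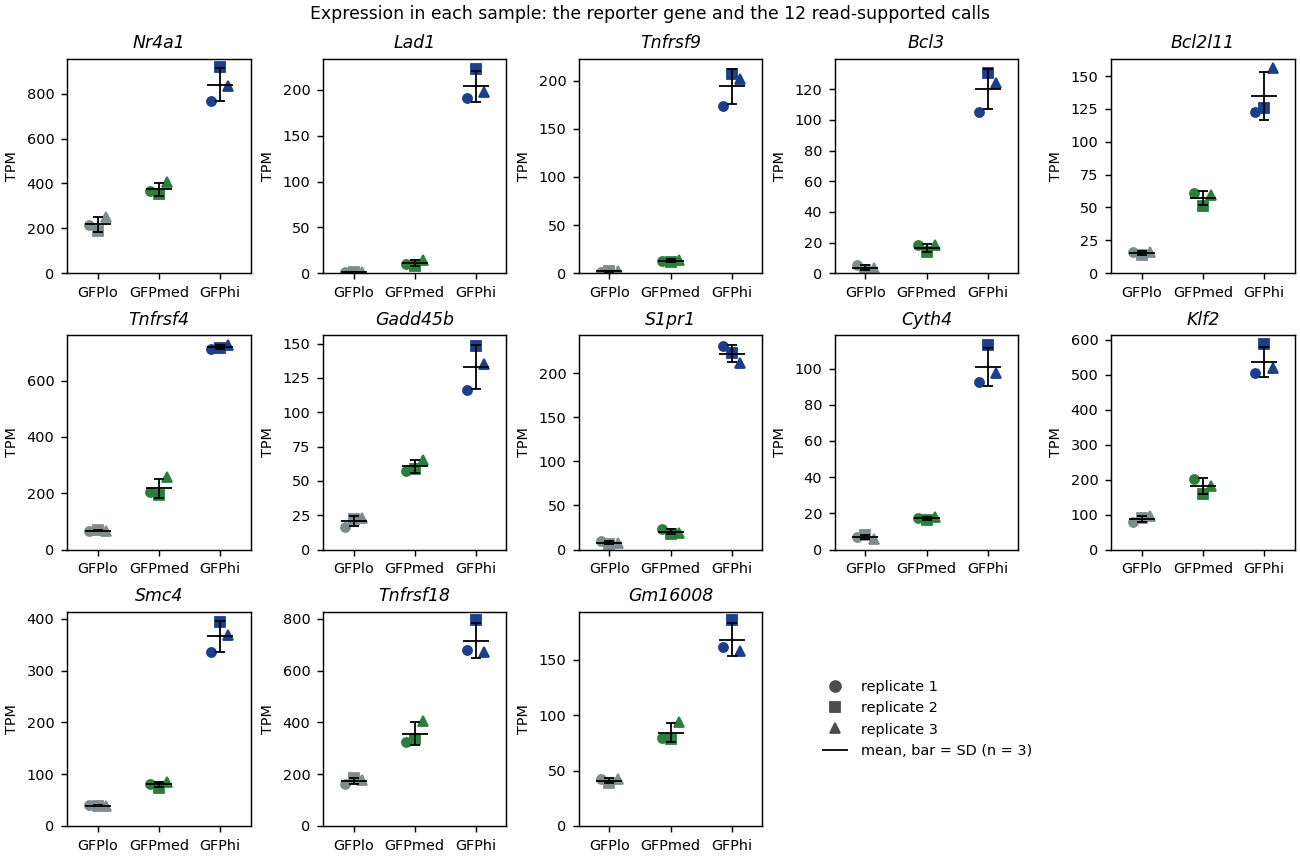
TPM (y axis, linear, from 0) of Nr4a1 and the 12 called genes with at least 10 mean reads, by group (x axis), with 1 symbol per sample and the mean with its SD (n = 3) as bars. In every panel the 3 GFPmed samples lie above the 3 GFPlo samples and below the 3 GFPhi samples.

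Genes tied to clonal deletion were called at the medium level as well. Bcl2l11 (chr2:128126038-128162547), which encodes the pro-apoptotic protein BIM, had 16.3, 13.9 and 16.2 TPM in GFPlo and 60.8, 51.3 and 59.8 TPM in GFPmed samples. Values within each group were close and the groups were far apart, with a ratio of means of 3.71. The log2 fold change was 1.83 (SE 0.12, adjusted p = 0.00523), on 403 to 460 reads in GFPlo and 1485 to 2897 reads in GFPmed samples. GFPhi samples had 123, 126 and 156 TPM, a log2 fold change over GFPlo of 3.04. Of its change from GFPlo to GFPhi on the log2 scale, 60.1% was present in GFPmed, the highest share among the 12 genes.

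Gadd45b, a stress-response gene that is a transcriptional marker of negative selection, had 16.6, 22.5 and 22.8 TPM in GFPlo and 57.2, 58.7 and 65.6 TPM in GFPmed samples. The groups were well separated, and the log2 fold change was 1.52 (SE 0.14, adjusted p = 0.021). Lad1, encoding the anchoring filament protein ladinin, had 0.828, 1.42 and 1.34 TPM in GFPlo and 10.5, 7.57 and 14.1 TPM in GFPmed samples. Its 7, 15 and 13 reads in GFPlo and 171, 76 and 119 reads in GFPmed gave the largest change of the 12 genes, 2.39 (SE 0.22, adjusted p = 0.0171), and it reached 204 ± 16.6 TPM in GFPhi.

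Of the 11 negative selection markers, all tested, 2 were called higher (0.0587% of all genes tested) and 7 were higher in every GFPmed than in every GFPlo sample (5.69%). Part of this list was taken from genes that the study discusses, so its direction is not independent evidence. Chchd10, coding for a mitochondrial protein, had 5.03, 7.32 and 4.40 TPM in GFPlo and 12.1, 14.3 and 15.7 TPM in GFPmed samples and did not pass (1.21, SE 0.18, adjusted p = 0.129). Itih5 had 1.25 ± 0.0735 and 3.06 ± 0.0954 TPM and missed the threshold on TPM (adjusted p = 0.373), but passed with limma-voom on a mean of 380 reads (log2 fold change 1.28, adjusted p = 2.95e-04). Eno3, a muscle-type enolase, had 12.9 ± 2.25, 20.3 ± 3.79 and 197 ± 36.5 TPM in GFPlo, GFPmed and GFPhi, with no overlap between GFPlo and GFPmed, and did not pass (0.62, adjusted p = 0.736). Ptpn22, a phosphatase that restrains TCR signalling, did not overlap either but was close to GFPlo, with 26.6 ± 0.500, 28.8 ± 1.48 and 46.3 ± 2.99 TPM in the 3 groups. Gadd45a and Gadd45g, relatives of Gadd45b, had log2 fold changes of -0.30 and 0.16 with overlapping groups.

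Among 14 tested genes of the BCL2 family, Bcl2l11 was the 1 gene called (0.0587% of all genes were called higher), and the median change was -0.07. Bcl2, which opposes BIM, had 55.8, 60.1 and 66.5 TPM in GFPlo and 45.3, 46.4 and 46.5 TPM in GFPmed samples. All GFPmed values lay below all GFPlo values, the log2 fold change of -0.39 (SE 0.12) did not pass on TPM (adjusted p = 0.744), and limma-voom on a mean of 7717 reads gave -0.42 with an adjusted p of 0.00555. Bbc3, encoding the BH3-only protein PUMA, had 19.4 ± 2.61 TPM in GFPlo and 15.7 ± 1.43 TPM in GFPmed (log2 fold change -0.28). Bcl2a1d, an anti-apoptotic member with near-identical copies whose reads may be split, had 2.43 ± 0.595 and 4.43 ± 0.478 TPM and did not pass (adjusted p = 0.724).

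Bcl3 (chr7:19808462-19822770) encodes an atypical IkB protein that binds NF-kB p50 and p52. Of 15 NF-kB subunits and regulators tested, it was the 1 called gene (0.0587% of all genes were called higher). It had 5.03, 2.24 and 3.66 TPM in GFPlo and 18.1, 13.6 and 18.1 TPM in GFPmed samples. Its groups did not overlap, with a log2 fold change of 1.96 (SE 0.23, adjusted p = 0.0461). Antisense genes Gm16175 and Gm16174 overlap its span, and their reads could be counted with it. Of the 15 genes, 14 had a change above 0 (14220 of all 28941 genes tested), with a median of 0.22. An unadjusted p under 0.05 with a higher mean was found for 8 of the 15 (2.79% of all genes). The other members moved little in size. Rel had 15.3 ± 1.61 and 21.0 ± 1.02 TPM, Birc3 37.8 ± 1.55 and 49.1 ± 0.432 TPM, Nfkbia, the IkB alpha gene, 380 ± 25.6 and 485 ± 40.5 TPM, and Nfkb2 96.9 ± 7.87 and 122 ± 6.16 TPM in GFPlo and GFPmed. None of these passed (adjusted p between 0.464 and 0.654).

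Of the genes of thymocyte maturation and egress more were higher than lower. Klf2 (chr8:72319033-72321656), a transcription factor required for egress, had 77.5, 89.8 and 96.0 TPM in GFPlo and 202, 159 and 183 TPM in GFPmed samples. S1pr1 (chr3:115710433-115715072), the sphingosine 1-phosphate receptor that T cells use to leave the thymus and a known KLF2 target, had 9.39, 6.35 and 7.20 TPM in GFPlo and 23.6, 18.2 and 18.9 TPM in GFPmed samples. Neither gene had overlapping groups, with log2 fold changes of 1.04 (SE 0.12, adjusted p = 0.0404) for Klf2 and 1.30 (SE 0.15, adjusted p = 0.0409) for S1pr1. Of the change of S1pr1 from GFPlo to GFPhi on the log2 scale, 27.7% was present in GFPmed, the lowest share among the 12 genes.

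Gimap3, a GTPase of lymphocyte survival, passed the adjusted p with 335, 303 and 350 TPM in GFPlo and 709, 544 and 616 TPM in GFPmed samples (log2 fold change 0.91, SE 0.11, adjusted p = 0.0459). Of the 19 genes of the list, all tested, 2 were called higher (0.0587% of all genes tested). In the higher direction 3 passed the adjusted p (0.076% of all genes), and 0 passed lower (0.00346%). In the limma fit 9 were higher and 3 lower at an unadjusted p under 0.05 (2.79% and 1.94% of all genes tested). A change above 0 was found for 13 of the 19 (14220 of all 28941 genes tested). In all GFPmed samples 10 lay above and 3 below GFPlo (5.69% and 4.79%). With limma-voom 2 passed lower, Ccr9 and Satb1 (0.0727% of all genes passed lower). The list holds Ccr9, a gene of immature thymocytes, beside genes of mature cells, so its counts carry no single direction of maturation. With limma-voom 5 passed higher (0.183% of all genes), Itgb7 (0.52, adjusted p = 0.00824) and Gimap4 (0.34, adjusted p = 0.00283) being the added genes. Not every gene of the list was higher, and Ccr7, the receptor that draws SP cells to the medulla, had 378 ± 29.7, 375 ± 8.66 and 341 ± 3.59 TPM.

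Ccr9, a chemokine receptor of immature thymocytes, was the read-rich gene with the lowest p among those lower in GFPmed. It had 292, 328 and 314 TPM in GFPlo and 222, 237 and 218 TPM in GFPmed samples. No GFPmed sample reached the GFPlo range, and the mean of GFPmed was 0.725 of that of GFPlo, but the log2 fold change of -0.46 (SE 0.06) missed the threshold (adjusted p = 0.0904), while limma-voom gave -0.49 with an adjusted p of 2.39e-05. Lztfl1, which lies inside the annotated span of Ccr9 on the other strand, had 114 ± 5.64 and 85.0 ± 3.53 TPM (log2 fold change -0.42, adjusted p = 0.205), and its reads may be shared with Ccr9. Satb1, a chromatin organiser of thymocytes, had 760 ± 15.8 and 602 ± 45.0 TPM, and passed with limma-voom (-0.34, adjusted p = 2.39e-05) but not on TPM (adjusted p = 0.373).

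Markers of DP thymocytes are given beside Ccr9, which is one of them. Their summed level, over 8 markers, was between 351 and 390 TPM in GFPlo and between 269 and 291 TPM in GFPmed samples, with no marker at 0. Ccr9 made up most of this sum, and the other 7 summed to between 58.8 and 61.8 TPM in GFPlo and to between 50.5 and 53.5 TPM in GFPmed samples. Dntt, the terminal transferase of immature thymocytes, had 12.2, 14.6 and 13.9 TPM in GFPlo and 9.54, 10.1 and 8.95 TPM in GFPmed samples. Rag1 had 6.10 ± 2.05 and 5.19 ± 0.927 TPM and Cd8a 16.7 ± 2.38 and 16.7 ± 2.31 TPM, both with overlapping groups. The part of less mature cells in the lower Ccr9 was not tested. Among the CD4 lineage genes limma called none of 11 and the median was -0.19. This list holds Cd8a, Cd8b1 and Runx3, genes of the CD8 lineage, beside those of the CD4 lineage. Its median and counts therefore carry no single direction of lineage. At an unadjusted p under 0.05, 1 was higher and 2 were lower (2.79% and 1.94% of all genes tested). In all GFPmed samples 6 of 11 lay below GFPlo (4.79% of all genes tested). Lef1 (177 ± 14.2 and 145 ± 4.31 TPM) and Runx1 (15.5 ± 0.549 and 12.1 ± 0.607 TPM) passed lower with limma-voom (0.0727% of all genes), at adjusted p = 0.00417 and 0.0457.

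Smc4, a subunit of the condensin complexes that compact mitotic chromosomes, was called outside these lists. It had 39.7, 38.4 and 38.2 TPM in GFPlo and 80.9, 74.0 and 85.3 TPM in GFPmed samples. The GFPlo samples were nearly equal and all GFPmed samples were higher, and the log2 fold change was 1.03 (SE 0.08, adjusted p = 0.00835). Mir15b and Mir16-2 lie within its span. Cyth4, a guanine nucleotide exchange factor for ARF GTPases, had 6.85, 8.27 and 5.68 TPM in GFPlo and 17.3, 16.5 and 17.9 TPM in GFPmed samples (1.21, SE 0.14, adjusted p = 0.0409), again with no overlap. Emp3, a small membrane protein gene, passed below the fold limit with 27.6, 27.2 and 29.7 TPM in GFPlo and 49.5, 50.9 and 57.2 TPM in GFPmed samples (0.88, SE 0.07, adjusted p = 0.0128). H2-K2, an MHC class I pseudogene closely related to H2-K1, passed at 0.65 (adjusted p = 0.0404), and reads of the 2 genes may be exchanged.

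Of genes used as readouts of self-reactivity, Cd6 passed and Cd5 did not. Cd6, a scavenger receptor family member that tunes TCR signals, had 155, 157 and 154 TPM in GFPlo and 266, 255 and 265 TPM in GFPmed samples. The samples of a group were nearly equal and the groups did not overlap, and a log2 fold change of 0.75 (SE 0.08) reached an adjusted p of 0.0284. Cd5, its neighbour on chromosome 19 and a negative regulator whose surface level scales with self-reactivity, had 184, 182 and 212 TPM in GFPlo and 319, 316 and 319 TPM in GFPmed samples. Its groups were also separate, with a change of 0.72 (SE 0.10, adjusted p = 0.0904 on TPM and 3.71e-04 with limma-voom). Of the 10 genes of this list 0 were called and 1 passed the adjusted p (0.076% of all genes passed higher), with a median of 0.43. At an unadjusted p under 0.05, 5 of 10 were higher (2.79% of all genes), and limma-voom passed 2 higher (0.183% of all genes).

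**Figure D3:**
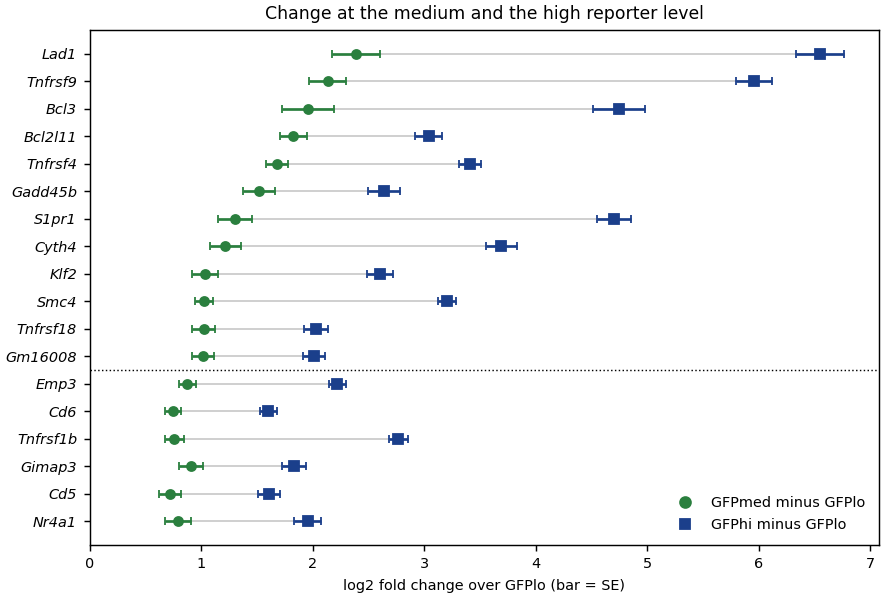
Log2 fold change on the log2(TPM + 1) scale (x axis, bars are SE) of GFPmed minus GFPlo (circles) and GFPhi minus GFPlo (squares) for the 12 called genes with at least 10 mean reads and, below the dotted line, 6 further genes named in the text. Both contrasts share the GFPlo samples, and the circles run from 0.72 for Cd5 to 2.39 for Lad1.

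How far each gene had moved by the medium level differed among the 12. The share of the log2 change from GFPlo to GFPhi that was present in GFPmed ran from 27.7% for S1pr1 to 60.1% for Bcl2l11. The median was 40.6%, and Nr4a1 had 40.5%. The 12 genes were selected on their change to GFPmed, which is part of this share. Selection favours high shares, so the median does not describe genes in general. Gadd45b (57.5%), Tnfrsf18 (50.4%) and Tnfrsf4 (49.3%) lay between the median and Bcl2l11. Cyth4 (32.9%), Smc4 (32.0%) and Tnfrsf9 (35.8%) lay between S1pr1 and the median. Since log2(TPM + 1) shrinks changes near 0 TPM, it also alters the shares of genes that are low in GFPlo. For Tnfrsf9 limma-voom gave changes of 2.54 to GFPmed and 6.49 to GFPhi. The distance of GFPmed from the midpoint of GFPlo and GFPhi was tested for all genes, and on TPM none of these 12 passed (adjusted p of at least 0.092). With limma-voom on reads 3 of the 12 lay below the midpoint, nearer to GFPlo than to GFPhi, namely Smc4 (-0.60, adjusted p = 5.24e-04), S1pr1 (-0.998, adjusted p = 0.0278) and Cyth4 (-0.63, adjusted p = 0.0428). Over all genes 3 of 28941 lay above the midpoint (0.0104%) and 3 below (0.0104%) on TPM, and with limma-voom 54 lay above (0.187%) and 41 below (0.142%). Of those that passed on TPM with at least 10 mean reads, Ccr9 lay above, being nearer to GFPlo than to GFPhi (60.4 ± 1.61 TPM) by 0.71 on the log2 scale from the midpoint (SE 0.05, adjusted p = 0.0141). Arhgap20, a GTPase-activating protein gene among the negative selection markers, lay below. Its GFPlo samples had 1.21, 1.17 and 0.596 TPM, its GFPmed samples 2.18, 1.52 and 1.93 TPM and its GFPhi samples 52.9 ± 5.54 TPM, so nearly all of its change came above the medium level (midpoint difference -1.84, adjusted p = 0.04). Rln3, coding for relaxin 3, lay below as well with 1.78 ± 0.698, 0.876 ± 0.122 and 42.0 ± 9.28 TPM in GFPlo, GFPmed and GFPhi, on a mean of 4.33 reads in the 6 samples.

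Among TCR-induced transcription factors limma called 0 of 17 tested and none passed the adjusted p. At an unadjusted p under 0.05, 6 were higher and 2 lower (2.79% and 1.94% of all genes tested). Limma-voom passed 2 higher, Nr4a1 and Ikzf4 (0.183% of all genes). Members of the list went both ways, with 8 above and 5 below GFPlo in all GFPmed samples (5.69% and 4.79% of all genes tested) and a median of 0.12. Egr1, an immediate early gene, had 958, 938 and 1001 TPM in GFPlo and 881, 831 and 820 TPM in GFPmed samples, and Egr2 had 391 ± 4.19 and 319 ± 31.6 TPM. Both were lower in every GFPmed sample, and neither passed (log2 fold change -0.19, adjusted p = 0.744 for Egr1, and -0.30, adjusted p = 0.665 for Egr2). Irf4 stood at 18.2, 15.9 and 19.1 TPM in GFPlo samples, at 33.3, 22.7 and 32.6 TPM in GFPmed samples and at 18.8 ± 3.10 TPM in GFPhi samples, the GFPmed samples being the highest of the 9. On TPM it passed neither test (adjusted p = 0.595 against GFPlo and 0.619 against the midpoint), and with limma-voom it lay above the midpoint by 0.69 (adjusted p = 0.0377) without passing against GFPlo (adjusted p = 0.112). Ikzf4, the gene of the Ikaros-family factor EOS, had 6.53 ± 0.240 and 11.8 ± 0.821 TPM (0.77, adjusted p = 0.121).

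**Figure D4:**
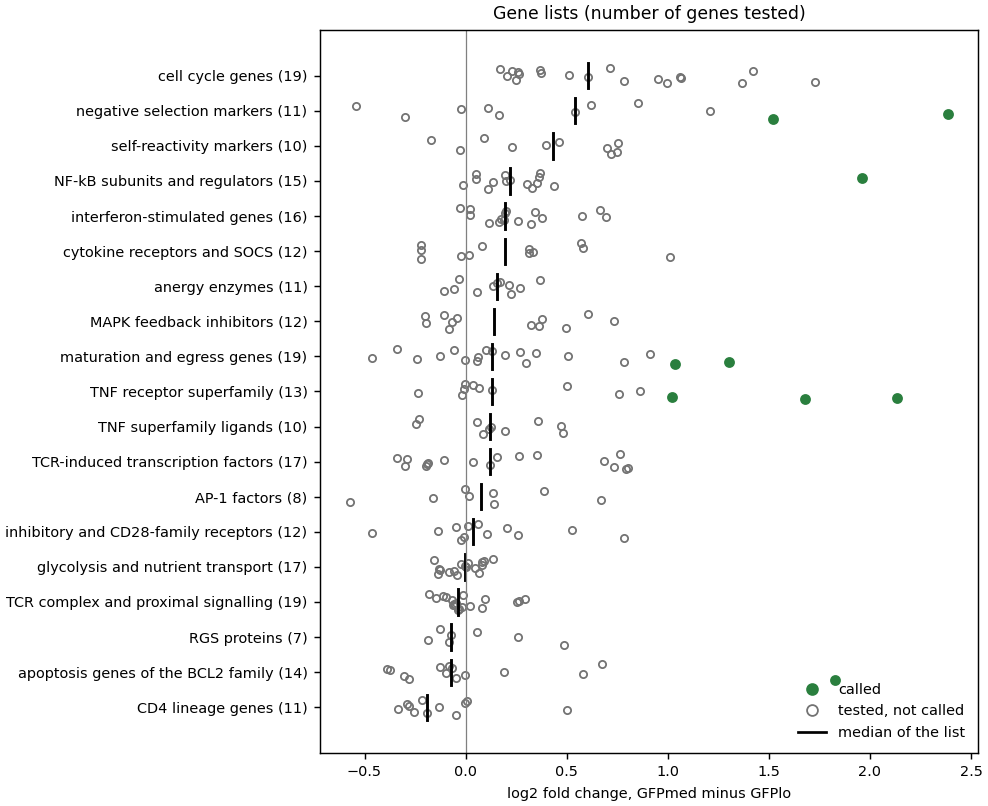
Log2 fold change of GFPmed minus GFPlo (x axis) for each tested gene of 19 gene lists (y axis, number tested in brackets), with filled circles for called genes and a bar at the median of each list. Medians run from -0.19 for the CD4 lineage genes to 0.61 for the cell cycle genes, and called genes stand in 5 of the lists. The CD4 lineage list also holds genes of the CD8 lineage.

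Cell cycle genes had the highest median of the 19 lists without a single call. All 19 were tested, and all 19 had a change above 0 (14220 of all 28941 genes tested), with a median of 0.61. Of the 19, 17 were higher in every GFPmed than in every GFPlo sample (5.69% of all genes tested). An unadjusted p under 0.05 was reached by 15 of the 19 (2.79% of all genes tested), and the lowest adjusted p was 0.169. Rrm2, a subunit of ribonucleotide reductase, had 19.5, 22.5 and 25.3 TPM in GFPlo and 68.4, 44.0 and 77.0 TPM in GFPmed samples (1.42, SE 0.23, adjusted p = 0.169). Mki67, the proliferation marker Ki-67, had 2.47, 3.62 and 3.29 TPM in GFPlo and 13.3, 7.06 and 9.20 TPM in GFPmed samples (1.37, SE 0.25, adjusted p = 0.253). Top2a, topoisomerase II alpha, had 25.2, 30.8 and 33.1 TPM in GFPlo and 79.4, 46.4 and 58.2 TPM in GFPmed samples (1.00, SE 0.21, adjusted p = 0.389).

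These 3 genes passed higher with limma-voom on reads (0.183% of all genes), at adjusted p = 0.0347, 0.034 and 0.0442, and the other 16 did not. In each of them GFPmed replicate 2 was the lowest of the 3 GFPmed samples and still above all GFPlo samples. Ccnb1 (2.50 ± 1.81 and 9.87 ± 2.40 TPM, 1.73), Birc5 (4.02 ± 0.422 and 9.66 ± 2.26 TPM, 1.07) and Aurkb (7.30 ± 3.14 and 15.7 ± 3.53 TPM, 1.06) had larger log2 fold changes than Mcm3 (52.5 ± 2.12 and 75.4 ± 4.81 TPM, 0.51), Mcm5 (47.2 ± 1.82 and 57.0 ± 5.47 TPM, 0.26), Mcm2 (172 ± 5.74 and 199 ± 20.9 TPM, 0.20) and Pcna (176 ± 8.94 and 211 ± 5.36 TPM, 0.26), a difference between the genes that was not tested. Ccnd3, the main D-type cyclin of thymocyte expansion, had 35.3 ± 2.69 and 39.8 ± 1.94 TPM, with overlapping groups.

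**Figure D5:**
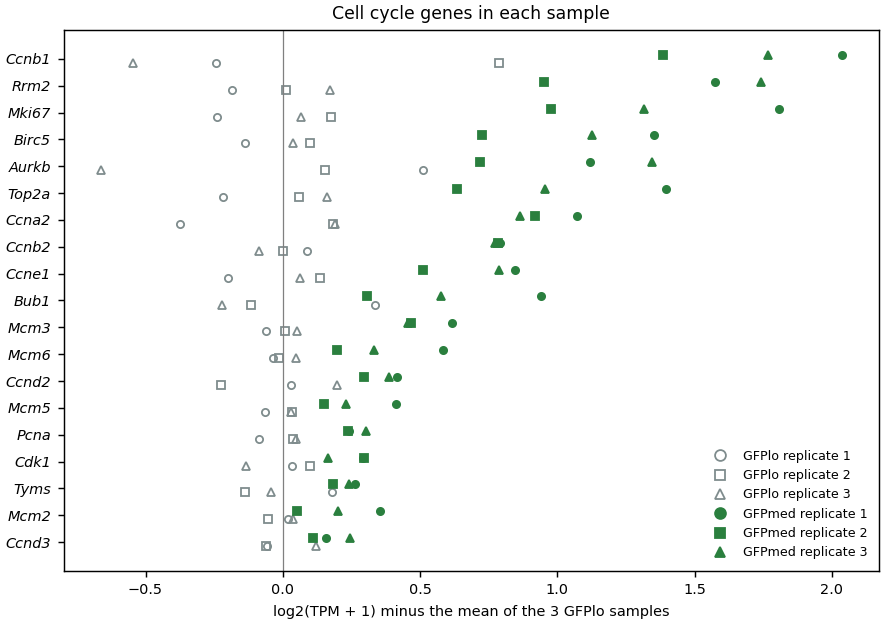
Log2(TPM + 1) of 19 cell cycle genes in each GFPlo (open symbols) and GFPmed (filled symbols) sample, as the difference from the mean of the 3 GFPlo samples (x axis), ordered by fold change (y axis). All GFPmed samples lie above all GFPlo samples for 17 genes, with Bub1 and Ccnd3 as the exceptions.

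Other lists held 0 calls and no gene past the adjusted p of limma on TPM. An unadjusted p under 0.05 was reached by 2.79% of all genes tested in the higher and 1.94% in the lower direction. By this measure 3 inhibitory and CD28-family receptors were higher, as were 5 cytokine receptors and SOCS genes (1 lower). Also higher were 3 genes of the anergy enzyme list, 2 MAPK feedback inhibitors (1 lower), 3 interferon-stimulated genes and 3 genes of TCR signalling. Limma-voom passed 2 genes of TCR signalling higher (0.183% of all genes), and 0 of the rest. Of 12 inhibitory and CD28-family receptors tested (median 0.04), Ctla4 had 1.50, 0.917 and 1.10 TPM in GFPlo and 3.26, 2.64 and 2.34 TPM in GFPmed samples (0.79, adjusted p = 0.572), and Cd200 had 8.40 ± 1.53 and 12.4 ± 0.244 TPM. For the 12 cytokine receptors and SOCS genes (median 0.20), Il2rb, the beta chain of the interleukin 2 receptor, had 5.80, 5.74 and 5.68 TPM in GFPlo and 14.5, 10.3 and 13.4 TPM in GFPmed samples, a change of 1.01 that did not pass (adjusted p = 0.14, and 0.0539 with limma-voom). The list of anergy enzymes (11 tested, median 0.16) also holds Izumo1r, a folate receptor family gene that does not encode an enzyme. Izumo1r had 95.0 ± 4.17 and 123 ± 2.68 TPM, and the ubiquitin ligase gene Cblb 4.29 ± 0.397 and 5.19 ± 0.524 TPM.

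The MAPK feedback inhibitors (12 tested, median 0.14) held Dusp2, with 376 ± 43.0 and 528 ± 9.56 TPM (0.49, adjusted p = 0.228), and Dusp6, with 549 ± 25.5 and 478 ± 15.4 TPM (-0.20). In the interferon-stimulated genes 15 of 16 had a change above 0 (14220 of all 28941 genes tested), with a median of 0.20. Of the 16, 2 lay above GFPlo in all GFPmed samples (5.69% of all genes tested). Ifi27l2a, with 278, 154 and 286 TPM in GFPlo and 414, 277 and 430 TPM in GFPmed samples, did overlap. Among 19 genes of the TCR complex and proximal signalling (median -0.04) Ptprc, encoding CD45, rose by 0.30 with limma-voom (adjusted p = 1.73e-04) from 268 ± 1.67 to 329 ± 14.6 TPM, and Zap70 had 139 ± 7.79 and 133 ± 3.66 TPM. AP-1 factors (8 tested, median 0.08), RGS proteins (7 tested, median -0.07) and glycolysis genes (17 tested, median -0.0012) had 0 genes passed by limma-voom. At an unadjusted p under 0.05 they had 1, 0 and 0 genes higher (2.79% of all genes tested).

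Of the remaining 6 calls, the 5 with recovered reads rest on few reads, and the reads of Rnu11 were not recovered. The small nuclear RNAs Gm22783 and Rnu11, the small nucleolar RNA Gm22806 and the pseudogenes Gm13314 and Gm18495 were at 0 TPM in all 3 GFPlo samples and passed the TPM limit through the GFPmed samples alone. Where reads were recovered, they were between 2 and 8 per GFPmed sample, and no fold is given. The 1 lower call, the microRNA gene Mir451b, had 3, 1 and 3 reads in GFPlo and 0 in GFPmed samples. Limma-voom gave adjusted p-values between 0.531 and 0.924 for the 5 with recovered reads, and a mean under 10 reads was found for 8843 of the genes tested (30.6%). Another pair of small genes was among those lower in GFPmed with the lowest p. Mir26a-1 had 99.1 ± 15.6 and 40.8 ± 4.44 TPM (-1.25, adjusted p = 0.107) on a mean of 10 reads, and the histone pseudogene H3f3c had 37.2 ± 13.2 and 15.2 ± 1.87 TPM (-1.19, adjusted p = 0.253) on a mean of 17 reads.

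On the recovered reads limma-voom passed 53 genes higher (0.183% of 28884) and 21 lower (0.0727%) at an adjusted p of at most 0.05, of which 16 had also passed on TPM. With the fold limit it called 18 higher (0.0623%) and 1 lower (0.00346%). Summed markers of other cells were low and overlapped between groups, with B cell sums between 21.6 and 33.3 TPM, macrophage or dendritic cell sums between 66.6 and 85.9 TPM, NK, NKT or gamma-delta T cell sums between 24.7 and 28.9 TPM and thymic epithelium sums between 5.58 and 11.7 TPM in the 6 samples. Of 3 thymic epithelium markers tested, 2 were higher in every GFPmed sample (5.69% of all genes tested), and neither passed the test. Epcam had 3.26, 2.97 and 2.15 TPM in GFPlo and 4.58, 3.85 and 5.97 TPM in GFPmed samples. Ly75 had 1.94, 1.78 and 1.72 TPM in GFPlo and 2.48, 2.45 and 2.57 TPM in GFPmed samples. The erythroid sum did not overlap, at 3.09 to 4.57 TPM in GFPlo and 5.64 to 8.58 TPM in GFPmed, led by Hbb-bs.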

How the data were processed

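Sorted SP4 thymocytes were profiled by bulk RNA-seq (SMART-seq v4 cDNA, Nextera XT libraries). Reads were trimmed, aligned with STAR 2.7.11b to GRCm38, freed of duplicates and counted on GENCODE genes by the authors, whose deposited TPM values are used here. The authors also deposited a normalized signal per group, the mean of counts divided by DESeq2 1.34.0 size factors, which was used only to solve for reads. The table's fold changes, adjusted p-values and call columns come from the authors' comparisons and were not used. Samples were grouped by their labels, and 0 sample columns were left unused.

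TPM is reads times a gene factor and a sample factor, and with the group means this gave the reads of 41578 of 41978 genes, whole in 100% of the values checked (at most 50 reads) within 0.05. The median total was 9426281 reads. Libraries were amplified by PCR and hold no molecular identifiers, so depth covers counting error only. The length behind TPM equalled the mean transcript span within 1% in 98.4% of 41439 genes, against 30.1% for the exonic length.

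Log2(TPM + 1) was tested with limma 3.58.1 (R 4.3.3) in one model over all 9 samples with eBayes and a trend, 6 residual degrees of freedom, and p-values adjusted over all 28941 genes. Because the values are TPM, limma-voom on the recovered reads was an alternative. GFPmed was also tested against the midpoint of GFPlo and GFPhi. Other alternatives were no filter or one at 5 TPM, a pseudocount of 0.1, median-of-ratios and quantile scaling, only the 6 samples, no trend, a replicate block, no fold limit and each sample left out. A minimum of 10 mean reads was added after the data were seen. Scripts were tested on simulated data.

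Members and lists were chosen with earlier results of these data known. Named were all calls, the Nr4a genes and Bcl2l11, list members past the adjusted p or with the 4 lowest p, the 5 lowest p past the adjusted p but not called, the 5 lowest p among genes lower in GFPmed with a mean TPM of at least 5, and cell type markers. Further list members and the genes passed only by limma-voom or the midpoint test were named after their values were seen, and some list members counted in the totals are not reported here by name. Coordinates come from GENCODE M21 on GRCm38, a release before that of the authors, and promoters from RefSeq. No source says whether samples of 1 number share mice, so replicate numbers were not taken as pairs. Deviations of GFPlo and GFPmed samples of 1 number correlated at 0.0785, 0.0156 and 0.0117. Their mean was 0.0353, against -0.0177 for samples of different numbers, and these values do not settle whether the samples are pairs.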

Additional observations from a re-analysis of the deposited data

How the results depend on the processing

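No named gene changed sign in any alternative (91 genes, 1528 values), 1387 values kept their side of the threshold, 133 values of 17 genes lost it and 8 values of 8 genes gained it. The 12 genes called with at least 10 mean reads had a positive change under every alternative. The 17 higher and 1 lower calls became 25 and 4 with a pseudocount of 0.1, 12 and 1 with no filter, 14 and 1 at a TPM of at least 5, 9 and 1 with median-of-ratios scaling, 17 and 2 with quantile normalization, 13 and 3 with only the 6 samples, 8 and 0 without the trend, 12 and 0 at a mean of at least 10 reads, 18 and 1 with limma-voom, and 22 and 1 with no fold limit. These counts do not hold the same genes. Of the 12 genes, 3 remained called with only the 6 samples (4 of the 17 among its 13 higher calls), 4 without the trend, 5 with median-of-ratios scaling, 8 with no filter and 11 with limma-voom, and all 12 with a pseudocount of 0.1, at a TPM of at least 5, with quantile normalization and at a mean of at least 10 reads. Leaving out 1 sample left between 1 and 6 of the 12 called. Samples that share only a number were not treated as pairs, and with a replicate block 5 genes were higher, 0 lower, 0 above and 0 below the midpoint, with 938 and 764 genes higher and lower at an unadjusted p under 0.05 in limma. Of 6 samples 4 correlated best with the sample of their own number. Of the 12 genes, 3 were called with the block (Bcl2l11, Gadd45b and Tnfrsf4). Leaving out 1 sample gave 2 to 9 higher and 0 to 1 lower calls, with 9 higher without GFPlo replicate 1, 4 without GFPlo replicate 2, 5 without GFPlo replicate 3, 9 without GFPmed replicate 1, 8 without GFPmed replicate 2 and 2 without GFPmed replicate 3, each on fewer samples. Genes above and below the midpoint, 3 and 3, became 10 and 5 with a pseudocount of 0.1, 1 and 0 at a TPM of at least 5, 8 and 5 with quantile normalization, 1 and 1 at a mean of at least 10 reads, and 54 and 41 with limma-voom. Leaving out 1 sample gave 0 to 4 above and 0 to 2 below. The cause of these moves was not tested. The median log2 fold change of all genes moved by under 0.1 in every alternative. Each group held 3 samples and 30.6% of genes tested had a mean under 10 reads, which limits the precision of their values.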

Other observations

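Genes outside the lists, named here because limma-voom passed them and after their values were seen, include MHC class I antigen presentation genes. H2-K1 had 1198, 1000 and 1151 TPM in GFPlo and 1957, 1672 and 1728 TPM in GFPmed samples, H2-D1 had 2005 ± 128 and 2462 ± 96.9 TPM, and Tapbp, the peptide-loading protein tapasin, had 690 ± 59.4 and 844 ± 50.7 TPM. All 3 were higher in every GFPmed than in every GFPlo sample, with voom log2 fold changes of 0.70, 0.30 and 0.30 (adjusted p = 2.08e-04, 0.00324 and 0.0253), and none passed on TPM. Tagap, a GTPase-activating protein gene of activated T cells, had 10.4, 4.23 and 8.32 TPM in GFPlo and 23.4, 24.1 and 20.9 TPM in GFPmed samples (1.69, adjusted p = 0.022 with limma-voom), and Lmna, the lamin A gene, had 6.50 ± 0.906 and 14.8 ± 0.949 TPM (1.15, adjusted p = 0.0153).

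Of the genes that limma-voom passed lower, Myo6, an unconventional myosin gene, had 10.4, 12.3 and 19.4 TPM in GFPlo and 4.40, 4.51 and 6.88 TPM in GFPmed samples, and was the 1 gene past the fold limit (-1.47, adjusted p = 0.00283). Id2, which restrains E proteins, had 1504 ± 163 and 1038 ± 99.4 TPM (-0.58, adjusted p = 0.00203). Nabp1, a single-stranded DNA binding protein gene, was highest in the medium group, with 200.5, 206 and 201 TPM in GFPlo samples, then 295, 286 and 280 TPM in GFPmed samples and 210 ± 15.2 TPM in GFPhi. Its GFPmed samples lay above those of both other groups (0.49 over GFPlo, adjusted p = 5.16e-04 with limma-voom).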
